A study of Mus musculus with 12 samples.

Results

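The brush border peptidases described here are 8 membrane-bound enzymes of the small intestine, encoded by Anpep, Enpep, Dpp4, Mep1a, Mep1b, Dpep1, Naaladl1 and Ace. The members are picked out by gene name alone, as a set assembled with earlier results of these data known, and make up 8 of the 19012 gene symbols in the tables. Where a symbol had several transcripts, the longest was used. Poly(A) RNA of mouse small intestinal epithelium was sequenced in 12 libraries from 3 tissues (crypts, villi and cultured organoids) and 3 origins (duodenum, jejunum and ileum). Freshly isolated crypts gave 2 libraries at each origin, numbered replicate 1 and replicate 2. Freshly isolated villi gave 1 library at each origin, and organoids, which are epithelial cultures grown from crypts, gave 1 library at each origin after 12 weeks in culture. No genotype, drug or diet is named for any group, with strain, age and number of animals not given in the sources used here. Since nothing in the labels says that the replicates are separate animals, p-values cover only the spread among the libraries at hand, which may be technical.

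Brush border peptidases sit on the apical microvilli of enterocytes, the absorptive cells that cover the villi, and cut the oligopeptides left by pancreatic proteases. Aminopeptidases take residues from the amino end, dipeptidyl peptidase removes dipeptides, meprins cut inside peptide chains, and dipeptidases release free amino acids. The products are taken up by peptide and amino acid transporters of the same membrane. Enterocytes arise from stem cells in the crypts and acquire these enzymes as they mature and move up the villus, so such genes are widely used as markers of enterocyte maturation. Several of them are also made elsewhere, for example Ace in endothelium and Dpp4 on lymphocytes.

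The windows upstream of 5 members are shown because all 5 genes were higher in villi than in crypts while their order along the length of the intestine differed. Windows of the RefSeq promoter table (build GRCm38.p6, a later build than that of the expression tables) were taken for 6 of the 8 members. Each window runs 5′ to 3′ from 250 bases before the gene's start to 50 after it. For the windows printed, the start lies within 29 bases of the first base of the RefSeq model that carries the accession in the tables. Capitals mark matches to 5 short motifs, searched on both strands. The HNF1 half-site was searched as GTTAA and the HNF4 half-site as CAAAGT. The GATA factor motif was searched as AGATAA, the CDX motif as TTTATG and the core promoter's box as TATAAA. The first set, Mep1a and Dpep1, had its highest values in the ileum.
Mep1a, chr17:43502724-43503023, minus strand: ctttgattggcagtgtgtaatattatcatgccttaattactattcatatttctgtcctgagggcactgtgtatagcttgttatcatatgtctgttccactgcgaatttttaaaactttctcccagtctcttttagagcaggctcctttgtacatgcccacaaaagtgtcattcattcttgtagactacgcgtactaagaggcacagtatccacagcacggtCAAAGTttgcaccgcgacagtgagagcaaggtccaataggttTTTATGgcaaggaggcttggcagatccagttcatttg
Dpep1, chr8:123185985-123186284, plus strand: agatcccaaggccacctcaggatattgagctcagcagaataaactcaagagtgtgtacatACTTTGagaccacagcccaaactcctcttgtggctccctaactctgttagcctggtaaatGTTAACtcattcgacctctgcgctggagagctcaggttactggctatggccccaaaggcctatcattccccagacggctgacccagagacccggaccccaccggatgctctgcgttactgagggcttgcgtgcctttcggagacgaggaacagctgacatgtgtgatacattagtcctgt
Ace is shown beside them because it was highest in the jejunum.
Ace, chr11:105967698-105967997, plus strand: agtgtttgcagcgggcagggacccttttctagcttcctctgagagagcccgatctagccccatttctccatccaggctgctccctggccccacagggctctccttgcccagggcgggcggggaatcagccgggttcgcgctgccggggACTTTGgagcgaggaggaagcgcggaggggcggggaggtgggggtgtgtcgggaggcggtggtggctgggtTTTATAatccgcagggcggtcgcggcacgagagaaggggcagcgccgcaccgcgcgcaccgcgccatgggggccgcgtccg
Enpep and Dpp4 are shown because their ileal values lay above the jejunal ones in crypt replicate 2 and villi and below them in crypt replicate 1 and organoids.
Enpep, chr3:129332700-129332999, minus strand: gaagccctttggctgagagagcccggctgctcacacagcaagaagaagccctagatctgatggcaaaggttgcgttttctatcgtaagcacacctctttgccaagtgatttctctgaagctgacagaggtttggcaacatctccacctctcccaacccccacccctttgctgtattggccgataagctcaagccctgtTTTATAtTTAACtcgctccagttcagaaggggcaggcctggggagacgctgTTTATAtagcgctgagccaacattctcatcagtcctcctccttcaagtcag
Dpp4, chr2:62412182-62412481, minus strand: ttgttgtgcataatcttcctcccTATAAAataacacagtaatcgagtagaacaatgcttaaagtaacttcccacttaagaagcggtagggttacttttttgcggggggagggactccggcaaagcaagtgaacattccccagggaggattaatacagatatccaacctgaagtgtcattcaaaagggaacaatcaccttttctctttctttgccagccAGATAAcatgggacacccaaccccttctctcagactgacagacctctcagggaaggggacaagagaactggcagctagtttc

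Counting the start as 0, the Mep1a window held the HNF4 half-site at -29 to -24 and the CDX motif at 13 to 18. In Dpep1 the HNF1 half-site was found on both strands, at -130 to -126 and at -129 to -125, in 2 overlapping matches, and the HNF4 half-site stood on the reverse strand at -190 to -185. The Ace window held a reverse HNF4 half-site at -102 to -97 and a reverse TATA box at -31 to -26. Enpep had a reverse HNF1 half-site at -45 to -41 and reverse TATA boxes at -52 to -47 and -1 to 4, and Dpp4 had the GATA motif at -32 to -27 and a TATA box at -227 to -222. Such short strings are common. Over 32851 windows of the same table the HNF1 half-site was present in 24.2%, the HNF4 half-site in 14.4%, GATA in 11.2%, CDX in 11.9% and the TATA box in 13.6%. A match is a run of letters and was not tested as a binding site.

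In the coordinates of the deposited tables (build mm9), Anpep lies at chr7:86966688-86987169 on the minus strand, Enpep at chr3:128972094-129035666 (minus), Dpp4 at chr2:62169795-62250138 (minus) and Mep1a at chr17:43611277-43639721 (minus). Mep1b lies at chr18:21230844-21258699 on the plus strand, Dpep1 at chr8:125710134-125725712 (plus), Naaladl1 at chr19:6105797-6115554 (plus) and Ace at chr11:105829260-105851258 (plus). Each value covers the exons of the whole gene model, and no other gene in the tables overlaps a member. Ace was listed with a somatic long model, which was kept, and with a short testis-type model that lies inside it. The short model's RPKM was 0.921 to 1.37 times that of the long one over the 12 libraries, and reads in their common part cannot be assigned to either.

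Expression was measured as RPKM, a read number scaled to the length of the exons and to the reads of the library, so levels can be compared between genes. The libraries held 5268480 to 18591819 reads in all, of which 44.3% to 75.8% lay in annotated genes. All members were covered by at least 36 reads in every library, except Naaladl1 in duodenal organoids with 3 reads. Stem cell markers were lower in villi, where they summed to 17.9 to 40.7 RPKM, than in crypts (114 to 1196) and organoids (537 to 714). Enterocyte markers differed within crypts, with 851 to 2055 RPKM in replicate 1 and 9172 to 25740.2 in replicate 2. Myeloid markers did not follow the labels in the jejunum, with 389 RPKM in crypt replicate 1 against 237 in villi. In bulk RNA, fewer enterocytes and less RNA per enterocyte cannot be told apart.

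The crypt libraries did not resemble each other in enterocyte genes, and this touches every comparison with crypts. At each of the 3 origins all 8 peptidases had higher values in crypt replicate 2 than in replicate 1, with a median log2 difference of 2.77 in duodenum, 2.70 in jejunum and 3.34 in ileum. For 16 enterocyte markers outside the member list, 16 of 16 were higher in replicate 2 at each origin, with medians of 3.35, 3.22 and 2.89. Stem cell and Paneth cell markers went the other way: 0 or 1 of 8 and 0 of 11 were higher in replicate 2. The smallest replicate ratio of a member was 3.32-fold (Naaladl1, duodenum) and the largest 16.9-fold (Anpep, ileum). Crypt results are therefore given with both replicates and with each alone. Whether the replicates differ in villus carry-over was not tested.

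**Figure D1:**
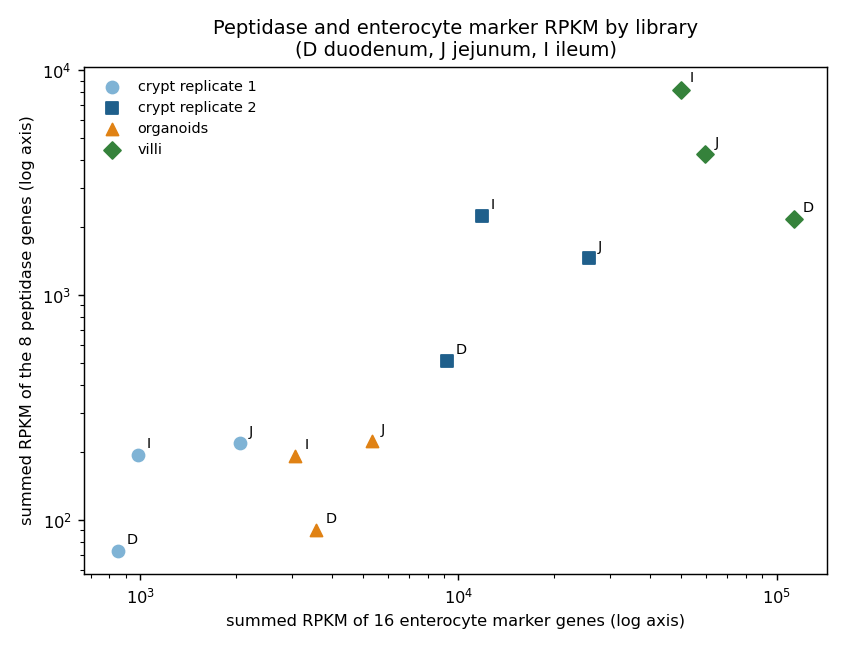
Summed RPKM of the 8 peptidase genes (y axis, log) against summed RPKM of 16 enterocyte marker genes (x axis, log), 1 point per library, with colour and shape for the series of libraries and D, J and I for the origins. Crypt replicate 1 has 72.7 to 219 RPKM of peptidases beside 851 to 2055 RPKM of markers, crypt replicate 2 has 510.2 to 2249 beside 9172 to 25740.2, organoids have 89.8 to 224 beside 3073 to 5354, and villi have 2172 to 8205 beside 50024 to 113101.

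The plot of summed levels shows that organoids and crypt replicate 1 had about the same summed peptidase RPKM. This likeness depends on the scaling. Annotated genes held 44.3% to 52.3% of the reads in crypt replicate 1 and 58.8% to 75.0% in organoids. Scaling to gene reads would therefore lower organoids relative to crypt replicate 1. Marker RNA of enterocytes was higher in organoids (3073 to 5354 RPKM) than in crypt replicate 1 (851 to 2055 RPKM). Within villi the orders ran in opposite directions, since peptidase RNA was highest in ileum (8205 RPKM) and enterocyte marker RNA was highest in duodenum (113101 RPKM).

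Anpep, aminopeptidase N, which removes neutral residues from the amino end of peptides, was the most abundant member in all crypt and villus libraries. In the order duodenum, jejunum and ileum, Anpep measured 41.5, 109 and 56.7 RPKM in crypt replicate 1 and 259, 774 and 960.0 in crypt replicate 2. Organoids held 24.2, 37.0 and 17.7 RPKM and villi held 589, 1565 and 3051. Every organoid value lay below every crypt value, and at each origin the villi lay above both crypt libraries. Anpep was 172-fold higher in ileal villi than in ileal organoids.

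Enpep, aminopeptidase A, which removes acidic residues and converts angiotensin II, was less abundant than Anpep in every library. Crypt replicate 1 held 3.29, 9.78 and 5.55 RPKM of Enpep and crypt replicate 2 held 31.9, 53.8 and 82.7. In organoids Enpep measured 4.67, 21.5 and 14.8 RPKM and in villi 60.3, 148 and 245. At each origin the organoid value stood between the crypt replicates.

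Dpp4, dipeptidyl peptidase 4, which cuts dipeptides after proline or alanine and inactivates incretin hormones, varied least between villi of different origin. Its RPKM was 4.12, 9.90 and 8.09 in crypt replicate 1, 26.1, 38.8 and 43.5 in crypt replicate 2, 12.9, 29.9 and 27.7 in organoids, and 75.6, 86.0 and 103 in villi. Villus values did not overlap those of crypts or organoids, and organoid values again stood between the crypt replicates at each origin.

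Mep1a and Mep1b encode the meprin alpha and beta subunits, metalloproteases that join into dimers and cut within peptide chains. Mep1a measured 3.31, 7.92 and 24.4 RPKM in crypt replicate 1, 12.5, 52.3 and 234 in crypt replicate 2, 15.8, 18.4 and 18.7 in organoids, and 67.3, 161 and 752 in villi. Mep1b measured 5.65, 19.6 and 13.3 RPKM in crypt replicate 1, 62.9, 144 and 156 in crypt replicate 2, 28.2, 71.1 and 62.1 in organoids, and 280.3, 407 and 521 in villi. The subunits differed in organoids: Mep1b lay between the crypt replicates at all 3 origins, whereas Mep1a lay above both in duodenum, between them in jejunum and below both in ileum.

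Dpep1 is a membrane dipeptidase that also cleaves leukotriene D4. It had 3.05, 19.1 and 30.5 RPKM in crypt replicate 1 and 44.2, 160.2 and 383 in crypt replicate 2. Organoids had 2.51, 26.7 and 27.0 RPKM of Dpep1 and villi 294, 385 and 909. Duodenal libraries were lowest in each of these series. Organoid values lay close to those of crypt replicate 1, at 0.824, 1.40 and 0.885 times its level.

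Naaladl1, a relative of the glutamate carboxypeptidases, had the widest range. It measured 6.11, 25.9 and 53.3 RPKM in crypt replicate 1, 20.3, 89.3 and 364 in crypt replicate 2, and 253, 797 and 2383 in villi. In organoids it measured 0.124, 13.5 and 22.2 RPKM. The duodenal organoid value rests on 3 reads, with an exact Poisson 95% interval of 0.0255 to 0.362 RPKM, which covers counting error only. Duodenal crypt replicate 1 was 49.3-fold higher (95% interval of the ratio of counts 16.2 to 245, exact conditional binomial). At each origin organoids lay below both crypt libraries and villi above both.

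Ace, angiotensin-converting enzyme, a dipeptidyl carboxypeptidase, was nearly as abundant as Anpep in duodenal villi and was the lowest member in ileal organoids. It measured 5.71, 17.6 and 2.998 RPKM in crypt replicate 1, 53.7, 147 and 25.9 in crypt replicate 2, 1.29, 5.88 and 2.06 in organoids, and 552, 681 and 241 in villi. Villus values did not overlap those of crypts, and at each origin the organoid value lay below both crypt libraries. Endothelial markers, 9 genes in all, summed to at most 1.94 RPKM in any library, and their part in the Ace values was not tested.

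**Figure D2:**
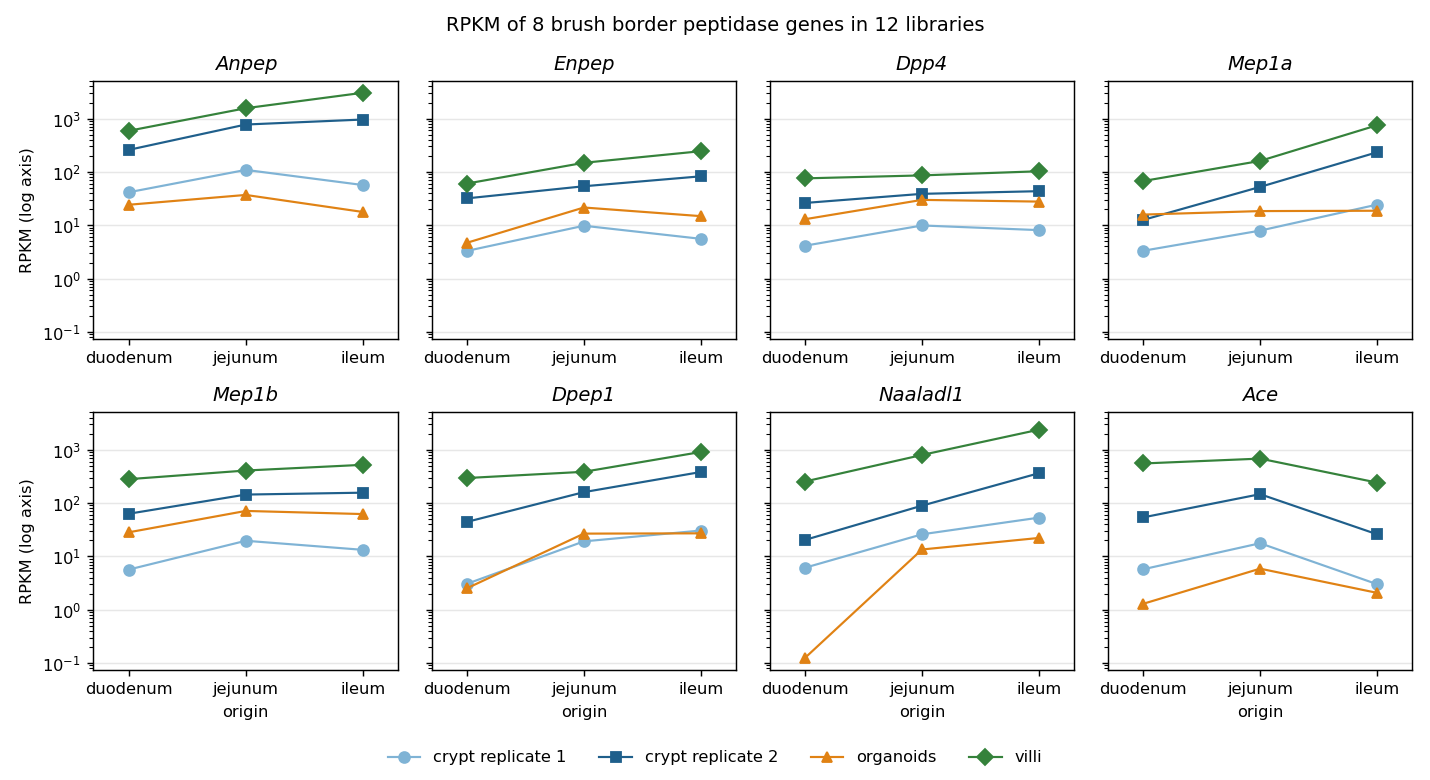
RPKM on a log axis (y) of each member at the 3 origins (x), with 1 point per library and a line joining the libraries of a series: crypt replicate 1, crypt replicate 2, organoids and villi. Villi lie above both crypt series in every panel, Anpep and Ace of organoids lie below both crypt series at each origin, and Naaladl1 of duodenal organoids stands alone at 0.124 RPKM.

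Villi had more RNA of all 8 peptidases than crypts. All 8 passed the test (trended limma on log2(RPKM + 1), additive in tissue and origin, 12 libraries, adjusted p under 0.05 over 11690 genes). Among all genes tested, 53.4% were called in this comparison and 20.5% were called higher. The median over the 8 members was 3.24 on the log2 scale, against -0.20 over all genes tested. The scaling moved that background: with TMM factors the median of all genes was -0.03 and with scaling to reads in annotated genes it was -0.43. Of all genes, 2402 were called higher and 3835 lower, against 3390 and 3265 with TMM and 1804 and 5029 with scaling to gene reads. All 8 members were called higher under each of the 3 scalings.

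The largest differences between villi and crypts were those of Ace, at 4.37 on the log2 scale (SE 0.76, limma adjusted p = 0.000422), and Naaladl1, at 4.16 (SE 0.59, adjusted p = 9.33e-05). Dpep1 followed at 3.42 (SE 0.88), then Mep1b at 3.38 (SE 0.80) and Mep1a at 3.11 (SE 0.75), with limma adjusted p-values of 0.00548, 0.00339 and 0.00376. Anpep rose by 2.87 (SE 0.86, limma adjusted p = 0.0132), Enpep by 2.79 (SE 0.77, adjusted p = 0.00830) and Dpp4 by 2.38 (SE 0.57, adjusted p = 0.00367). Differences in size between members were not tested.

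The sizes depended on the crypt replicate and the direction did not. Against replicate 1 alone the members' log2 fold changes ran from 3.47 (Dpp4) to 5.83 (Ace). Against replicate 2 alone they ran from 1.28 (Dpp4) to 3.14 (Naaladl1). In both fits 8 of 8 were called, and the share of all genes called in them is not given here. The call of Dpep1 was lost without duodenal villi (limma adjusted p = 0.0530) and that of Anpep without ileal villi (adjusted p = 0.0851). That of Enpep was lost without ileal villi when the set of genes tested was held fixed (adjusted p = 0.0521). Lymphocyte markers, 12 genes with Cd3e and Ptprc among them, summed to 53.1 to 205 RPKM in villi and to at most 3.95 elsewhere, and their part in the Dpp4 difference was not tested.

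Between organoids and crypts only some of the peptidases passed the test. Of the 8 members 3 were called lower in organoids and 0 higher, beside 24.2% of all genes called lower, 23.4% called higher and 47.7% called in all. The share of members called in all was not above that of all genes, and differences between members were not tested. Anpep fell by 2.88 on the log2 scale (SE 0.86, limma adjusted p = 0.0148), Naaladl1 fell by 2.61 (SE 0.59, adjusted p = 0.00290) and Ace fell by 2.59 (SE 0.76, adjusted p = 0.0135). Dpep1 differed by -1.65 (SE 0.88, adjusted p = 0.137). It passed with the crypt replicate number as a block (SE 0.32, limma adjusted p = 0.000649), beside 56.1% of all genes called with the block. That block takes the gap between crypt replicates out of the error and has no counterpart for organoids. The remaining members had small differences with wide errors: Enpep -0.58 (SE 0.77), Mep1a -0.33 (SE 0.75), Dpp4 0.44 (SE 0.57) and Mep1b 0.44 (SE 0.80), with limma adjusted p-values of 0.554, 0.735, 0.544 and 0.674. The split of all genes moved with the scaling, from 2741 higher and 2831 lower to 2098 and 3588 with scaling to gene reads.

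For 5 members the sign of this comparison turned on the crypt replicate. Against replicate 1 alone, Dpp4 was higher in organoids by 1.54 (SE 0.24, limma adjusted p = 0.000254), Mep1b by 2.03 (SE 0.25, adjusted p = 7.63e-05) and Enpep by 0.91 (SE 0.29, adjusted p = 0.0196). Against replicate 2 alone the same genes were lower, with log2 fold changes of -0.65 (adjusted p = 0.0422), -1.15 (adjusted p = 0.00263) and -2.07 (adjusted p = 0.000131) from limma. Mep1a went from 0.91 (adjusted p = 0.108) to -1.57 (adjusted p = 0.0296) and Dpep1 from 0.03 (adjusted p = 0.958) to -3.33 (adjusted p = 4.71e-05), also from limma. Fits with 1 crypt replicate leave the gap between replicates out of the error.

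Anpep, Naaladl1 and Ace were lower in organoids against either replicate. Their log2 fold changes were -1.30, -1.60 and -1.12 against replicate 1 and -4.47, -3.62 and -4.05 against replicate 2. All were past the threshold, and the share of all genes called in these fits is not given here. Single libraries still mattered: the Anpep call was lost without jejunal organoids (limma adjusted p = 0.0580) or ileal organoids (adjusted p = 0.111), and the Ace call without duodenal (adjusted p = 0.0817) or jejunal organoids (adjusted p = 0.0627). The Naaladl1 call was kept in all 12 leave-one-out fits.

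All 8 members were called lower in organoids than in villi, beside 25.8% of all genes called lower and 62% called in all. Ace fell by 6.95 on the log2 scale (SE 0.88, limma adjusted p = 2.56e-05), Naaladl1 fell by 6.76 (SE 0.68, adjusted p = 5.50e-06) and Anpep fell by 5.75 (SE 0.99, adjusted p = 0.000269). Dpep1 fell by 5.07 (SE 1.01), Mep1a fell by 3.45 (SE 0.87), Enpep fell by 3.37 (SE 0.89), Mep1b fell by 2.94 (SE 0.92) and Dpp4 fell by 1.94 (SE 0.66), with limma adjusted p-values of 0.000780, 0.00375, 0.00501, 0.0139 and 0.0208. Leaving out any of 5 organoid or villus libraries, all but jejunal villi, ended the Dpp4 call (adjusted p 0.0512 to 0.0828), and leaving out duodenal villi ended that of Mep1b (adjusted p = 0.0560). The organoid comparisons share the organoid libraries, and the villus comparisons share the villus libraries.

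**Figure D3:**
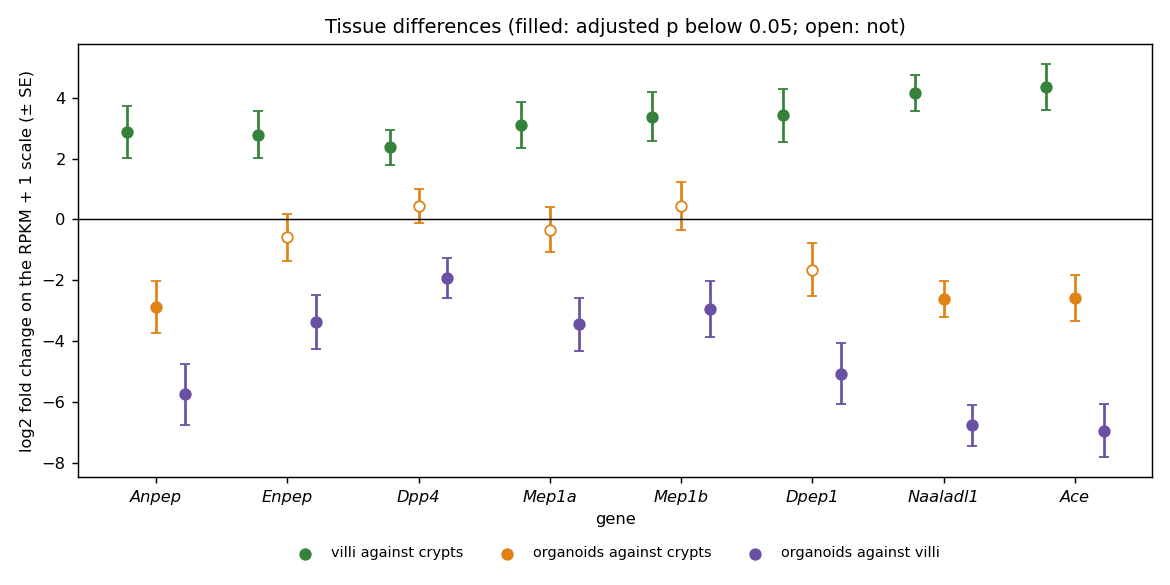
Log2 fold change on the RPKM + 1 scale (y, with bars of 1 SE) of each member (x) for villi against crypts, organoids against crypts and organoids against villi, from the additive limma fit over 12 libraries. Filled points passed an adjusted p of 0.05 and open points did not: all villus comparisons are filled, and against crypts only Anpep, Naaladl1 and Ace of organoids are.

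The make-up of peptidase RNA differed as well. Anpep held 29.1% to 57.0% of the summed peptidase RPKM in crypts and 27.1% to 37.2% in villi, and 26.9%, 16.5% and 9.21% in duodenal, jejunal and ileal organoids. Mep1b was the most abundant member in all 3 organoid libraries, with 31.4%, 31.8% and 32.3% of the sum, against 6.35% to 12.9% in the other 9 libraries. Dpp4 likewise held 13.3% to 14.4% in organoids and 1.25% to 5.67% elsewhere. Ace held 25.4% of the sum in duodenal villi, 16.1% in jejunal and 2.94% in ileal villi, and at most 2.63% in organoids. These shares are descriptions of single libraries.

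**Figure D4:**
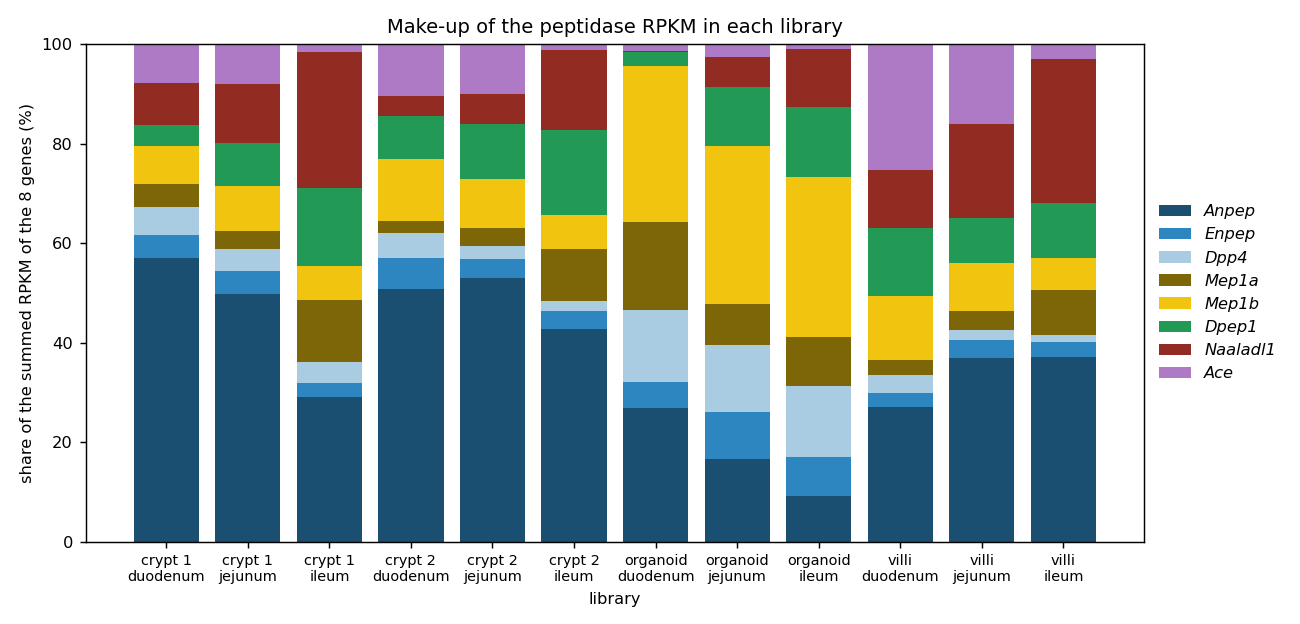
Share of each member in the summed RPKM of the 8 genes (y, %) in each of the 12 libraries (x), as stacked bars that add to 100. Anpep fills the largest part of every crypt and villus bar, Mep1b fills 31.4% to 32.3% of the organoid bars, and Ace shrinks from 25.4% in duodenal villi to 2.94% in ileal villi.

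Along the length of the intestine, Naaladl1, Dpep1 and Mep1a had their lowest value in duodenum, the next in jejunum and the highest in ileum in 4 of 4 series of libraries (crypt replicate 1, crypt replicate 2, organoids, villi). For Naaladl1 the ileum to duodenum ratio was 8.73 and 17.9 in the crypt replicates, 9.42 in villi and 179 in organoids, where the 95% interval from counts was 61.1 to 871. For Dpep1 the ratio was 10.03, 8.66, 3.09 and 10.8 in crypt replicate 1, crypt replicate 2, villi and organoids. Mep1a had ratios of 7.37, 18.7 and 11.2 in the fresh series and 1.18 in organoids, so its organoid values were nearly level.

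Ace had another order, with jejunum highest in 4 of 4 series. The ileum stood below the duodenum in crypts and villi, at 0.525, 0.482 and 0.437 times its level, and above it in organoids, at 1.61 times. Anpep, Enpep, Dpp4 and Mep1b were higher in jejunum than in duodenum in 4 of 4 series, and ileum exceeded jejunum in crypt replicate 2 and villi but not in crypt replicate 1 or organoids. The villus ratio of ileum to duodenum was 5.18 for Anpep, 4.06 for Enpep, 1.86 for Mep1b and 1.36 for Dpp4.

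**Figure D5:**
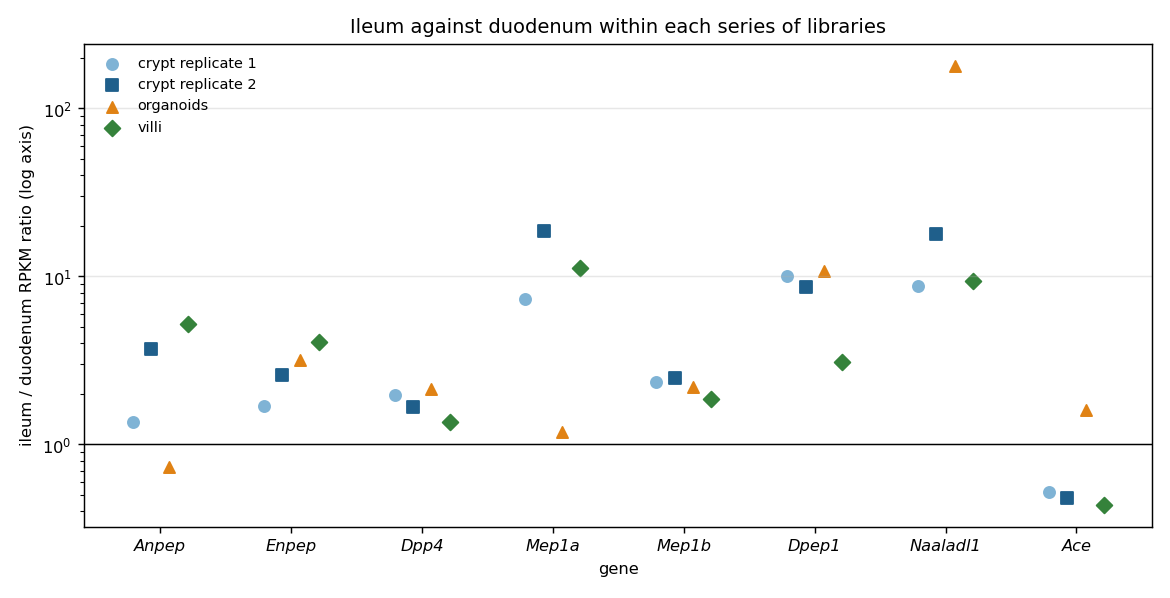
Ratio of ileum to duodenum RPKM (y, log axis) of each member (x) within each series: crypt replicate 1, crypt replicate 2, organoids and villi. The 4 Dpep1 points lie between 3.09 and 10.8, the Mep1a point of organoids lies at 1.18 below fresh values of 7.37 to 18.7, and 3 of the 4 Ace points lie below 1.

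In the test across tissues, 1 of 8 members differed between ileum and duodenum, beside 0.676% of all genes called and 0.47% called higher. Naaladl1 rose by 3.66 on the log2 scale (SE 0.59, limma adjusted p = 0.0124) and was higher in ileum in 4 of 4 series. Its call was lost without duodenal organoids, the library with 3 reads (log2 fold change 3.31, adjusted p = 0.0551), and without ileal villi when the genes tested were held fixed (adjusted p = 0.0505). With a block for the crypt replicate number, 5 of 8 members were higher in ileum, beside 2.59% of all genes called with the block. These were Naaladl1 (limma adjusted p = 2.23e-05), Dpep1 at 2.67 (adjusted p = 0.000479, 0.277 without the block), Mep1a at 2.59 (0.00555, 0.178 without), Mep1b at 1.10 (0.0111, 0.914 without) and Enpep at 1.36 (0.0128, 0.760 without).

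Anpep, at 1.07 (SE 0.86), Dpp4, at 0.76 (SE 0.57), and Ace, at -0.63 (SE 0.76), did not pass with or without the block. Enterocyte markers as a list had a median ileum to duodenum difference of -0.71 against 1.23 for the 8 members and 0.06 for all genes tested. Paneth cell markers had a median of 2.21, with 5 of 10 tested called higher. Their part in the member values was not tested.

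Between jejunum and duodenum 0 of 8 members passed, beside 0% of all genes called by limma (338 at an unadjusted p under 0.05, Naaladl1 alone among the members). The log2 differences were 0.74 (Dpp4) to 2.34 (Naaladl1), all above 0. With the block Naaladl1 (limma adjusted p = 0.00526) and Dpep1 at 1.88 (adjusted p = 0.0490) were called, beside 0.111% of all genes. Between ileum and jejunum 0 of 8 passed, beside 0.0428% of all genes (513 at an unadjusted p under 0.05, with Naaladl1 and Ace among them), and with the block Ace, at -1.83 (SE 0.27), was called lower in ileum (limma adjusted p = 0.0104), beside 0.265%.

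In the 6 crypt libraries alone, 0 of 8 members differed between ileum and duodenum, beside 0.036% of 11124 genes called by limma. At an unadjusted p under 0.05 there were 2 members, Naaladl1 and Mep1a, among 466 genes. Crypt means were 13.2 ± 10.03 RPKM (SD, n = 2) of Naaladl1 in duodenum and 209 ± 220 in ileum, 23.6 ± 29.1 and 207 ± 249 of Dpep1, and 7.92 ± 6.51 and 129 ± 148 of Mep1a. The spread between replicates was as large as the mean in ileum for each of these genes. With the replicate block 3 of 8 were called higher in ileum, beside 0.333% of all genes: Naaladl1 at 3.52 (limma adjusted p = 0.0159), Dpep1 at 3.02 (adjusted p = 0.0148) and Mep1a at 3.34 (adjusted p = 0.0332).

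Whether the ileum to duodenum difference of organoids or villi departed from that of crypts was tested as an interaction with 9 group means. None of the 8 members passed in either contrast, beside 0% of 12597 genes called by limma, with and without the block. At an unadjusted p under 0.05 without the block there were 0 members, beside 460 genes for villi and 330 for organoids. With the block there were Dpep1 for villi, among 817 genes, and Mep1a and Ace for organoids, among 546. For organoids against crypts the Mep1a term was -3.11 (SE 2.36 without the block and 0.72 with it, limma adjusted p = 1 and 0.937). For Naaladl1 that term was 0.85 (SE 1.96), for Dpep1 -0.03 (SE 3.09) and for Ace 1.31 (SE 2.68). For villi against crypts the member terms ran from -1.40 (Dpep1) to 1.21 (Anpep). Without the block, errors of this size leave differences of several log2 units undetectable, and with it the member SEs were 0.38 (Ace) to 0.74 (Anpep).

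Over the 12 libraries the members followed each other closely. The highest Pearson correlation of log2(RPKM + 1) was 0.996 between Dpp4 and Mep1b, followed by 0.959 between Enpep and Mep1b and 0.958 between Dpep1 and Naaladl1, and the lowest was 0.642 between Mep1a and Ace. These points share libraries, origins and the contrast between tissues, so the values are descriptions. The gene most like the mean standardised profile of the 8 members, among 6388 genes searched, was St3gal4, a sialyltransferase (r = 0.987, 12 libraries), followed by Irak4 (0.981), Srxn1 (0.980), Aspa (0.978) and Stap2 (0.977). Member by member the closest genes were Xpnpep1 for Anpep (0.991), St3gal4 for Enpep (0.978), Rfk for both Dpp4 (0.984) and Mep1b (0.987), Gsn for Mep1a (0.975), Aspa for Dpep1 (0.974), Gata5 for Naaladl1 (0.965) and Slc5a11 for Ace (0.988). Slc5a11, an inositol transporter, had medians of 70.2 RPKM in villi, 7.19 in crypts and 0.217 in organoids.

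Other peptidases, and transporters of peptides and amino acids, are read against the share of all genes, 53.4% called in villi against crypts and 20.5% called higher. Of 19 further membrane peptidases matched, 11 passed the filter on low values; 4 were higher and 1 lower in villi than in crypts, and the median log2 difference of those tested was 0.45. Ggt1, gamma-glutamyltransferase, rose by 3.63 (limma adjusted p = 0.00124), Xpnpep2, a membrane aminopeptidase P, by 3.29 (adjusted p = 0.00256) and Mme, neprilysin, by 3.07 (adjusted p = 0.00238). In organoids Ggt1 fell by 2.999 against crypts (limma adjusted p = 0.00502), with 1.32 to 4.15 RPKM in organoids and 4.69 to 103 in crypts. Mme had 6.71 to 31.0 RPKM in organoids and 0.264 to 19.6 in crypts (log2 difference 1.40, limma adjusted p = 0.110, 0.00662 with the block).

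Intracellular peptidases gave 5 higher and 2 lower of 18 in villi against crypts (median -0.08). The list's share called in all was below the 53.4% of all genes. Its share called higher, 5 of 18, was above the 20.5% of all genes. Pepd, prolidase, rose by 3.65 (limma adjusted p = 0.000342) and Lap3, leucine aminopeptidase, by 2.67 (adjusted p = 0.000708), whereas Thop1, thimet oligopeptidase, fell by 2.32 (adjusted p = 4.21e-05). Against crypts, organoids had 1 of 18 higher and 8 lower, beside 23.4% of all genes called higher and 24.2% called lower. The share called in all, 9 of 18, was close to the 47.7% of all genes, but the calls leaned to lower. The list's median log2 difference was -0.58, against 0.005 over all genes tested. Thop1 was lower in organoids as well, by -1.71 on the log2 scale (limma adjusted p = 0.000519).

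Peptide and amino acid transporters of the enterocyte had 10 of 15 higher and 3 lower in villi (median 1.79). Slc6a19, a neutral amino acid carrier, rose by 4.61 (limma adjusted p = 0.000406), Xtrp3s1 (now Slc6a20a), an imino acid carrier, by 3.92 (adjusted p = 0.000223) and Slc16a10, an aromatic amino acid carrier, by 2.86 (adjusted p = 1.41e-05). Organoids had 1 of 15 higher and 5 lower than crypts, beside 23.4% of all genes called higher, 24.2% called lower and 47.7% called in all. With the crypt replicate block 3 were higher and 9 lower, beside 56.1% of all genes called (3259 higher and 3296 lower of 11690). Slc6a19 held 206 to 386 RPKM in villi and 1.82 to 10.6 in organoids.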

How the data were processed

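Poly(A) RNA of 12 libraries was sequenced on a SOLiD 4 to a read length of 50 bp (per the labels' protocols) and aligned with BWA to mm9 (per the submitters' processing notes), with versions, gene models, counting rule and strand not given in the sources used here. As deposited by the authors, the values are RPKM for each transcript, per the file headers. Per library 99.95% of values or more were whole multiples of the worth of 1 read, within 0.02 of a read, which gave the read numbers. The worth of 1 read in a gene of 2 kb was 0.0269 to 0.0949 RPKM. Whether mm9 coordinates count from 0 or 1 was not stated in the files.

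The members and all gene lists were chosen with earlier results of these data known. Of 21247 transcripts the longest per symbol was kept. Genes entered a fit with an RPKM worth 10 reads or more at the median depth in 3 libraries (tissue and origin, 11690 genes, 7 residual degrees of freedom), 2 (crypts, 11124 genes, 3) or 1 (interactions, 12597 genes, 3), and 15 reads in total, and all 8 members entered each. limma 3.58.1 with a mean-variance trend (R 4.3.3) was fitted to log2(RPKM + 1), a scale that understates changes of low genes. Tests were two-sided with Benjamini-Hochberg adjustment over all genes tested and a threshold of 0.05. The origins stand in as replicates of villi and organoids, and in the interactions single libraries are assumed to vary like crypts. A preparation shared by a tissue's libraries cannot be told apart from the tissue. The script was tested on simulated data that held no shared gap between crypt replicates, so that test does not cover such a gap.

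The labels number crypt replicates 1 and 2 at each origin. Deviations of same-numbered crypt libraries from their origin means correlated over 11124 genes at 0.42 (duodenum and jejunum), 0.51 (duodenum and ileum) and 0.79 (jejunum and ileum). The numbers were therefore taken to pair the libraries, although the labels do not say what a number stands for. A block on them was run as the alternative fit. It has a term for crypts only and takes the gap between crypt replicates out of the error. Villi and organoids, with 1 library per origin, have no such term, so the block may understate the error of comparisons with them.

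Named genes are the 8 members, the 3 genes of each pathway list with the smallest p in villi against crypts, and the genes most correlated with the members among those with a mean RPKM of at least 5. The symbol Cpm of the pathway lists, and 7 symbols of the marker lists, had no match. Alternatives were an offset of 0.1, no filter, scaling to reads in annotated genes, TMM scaling, the transcript with the highest mean RPKM, each crypt replicate alone, each library left out, the block and, chosen after seeing the data, limma-voom on recovered reads and leaving out libraries with the same genes tested.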

Additional observations from a re-analysis of the deposited data

How the results depend on the processing

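The direction of all 8 members in villi against crypts and in organoids against villi, and their count of 8 past the threshold, held under every alternative that kept all libraries, except that the unfiltered fit lost Dpp4 in organoids against villi (adjusted p = 0.0550). Leaving out 1 library left 6 to 8 called in each of these comparisons. For organoids against crypts the count was 6 with crypt replicate 1 alone and 8 with replicate 2 alone, and 1 to 4 with 1 library left out. The sign also turned there with replicate 1 alone for Enpep (0.91), Mep1a (0.91) and Dpep1 (0.029), with replicate 2 alone for Dpp4 (-0.65) and Mep1b (-1.15), and with 1 library left out for Mep1a -1.06 to 0.52. The ileum to duodenum count went from 1 to 0 without the filter (Naaladl1 adjusted p = 0.0984), where more genes were tested, to 2 with crypt replicate 1 alone, 4 with replicate 2 alone, and 0 to 1 with 1 library left out. The jejunum to duodenum count was 1 with replicate 2 alone. Counts with 1 crypt replicate alone or with 1 library left out are given without the share of all genes called in those fits. They are therefore not read as particular to the members. With the crypt replicate number as a block the counts were 5 (ileum against duodenum), 2 (jejunum against duodenum), 1 (ileum against jejunum) and 3 (ileal against duodenal crypts), Dpep1 was called in organoids against crypts, and the block changed no other call. For ileum against jejunum the sign of Enpep and Dpp4 turned with scaling to gene reads (-0.17 and -0.18), TMM (-0.050 and -0.062), limma-voom (-0.17 and -0.093) and replicate 1 alone (-0.17 and -0.036), and that of Anpep and Mep1b with replicate 2 alone (0.084 and 0.093). With 1 library left out the ranges were Anpep -0.93 to 0.60, Enpep -0.61 to 0.77, Dpp4 -0.41 to 0.45, Mep1b -0.71 to 0.59. In ileal against duodenal crypts they were Anpep -0.86 to 3.19, Enpep -0.86 to 2.82, Dpp4 -0.43 to 1.97, Mep1b -0.53 to 2.93, Ace -2.40 to 0.63. The interaction of villi turned for Mep1a with the offset of 0.1 (-0.048), TMM (-0.21) and limma-voom (-0.21), and that of organoids for Dpep1 with the offset (0.18) and limma-voom (0.34). With 1 library left out the villus interactions ran over Anpep -0.82 to 3.23, Enpep -0.81 to 2.86, Dpp4 -1.54 to 0.87, Mep1a -1.48 to 1.73, Mep1b -2.04 to 1.42, Dpep1 -3.20 to 0.40, Naaladl1 -1.66 to 1.09, Ace -1.82 to 1.21, and those of organoids over Anpep -3.62 to 0.44, Enpep -1.34 to 2.34, Dpp4 -0.93 to 1.48, Mep1b -1.82 to 1.64, Dpep1 -1.83 to 1.78, Naaladl1 -0.52 to 2.22, Ace -0.20 to 2.82. The cause of these changes was not tested. Interactions gave no value without the single organoid or villus library they compare, and no test with 1 crypt replicate alone. The planned edgeR and DESeq2 fits were not run, because the deposited unit is RPKM. Precision is limited by the single libraries and by the gap between crypt replicates, and depth limits Naaladl1 in duodenal organoids (3 reads).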
